A study of Bos taurus with 8 samples.

Results

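The genes described here make and package milk fat: GPAM, AGPAT6, AGPAT1, LPIN1, DGAT1 and DGAT2, which build triglyceride, PLIN2, which coats lipid droplets, and XDH, BTN1A1 and MFGE8, which belong to the milk fat globule. They were chosen by name, as every array probe whose gene name in the scanner files is one of these 10. That gave 24 of the 43653 probes on the array that are not controls, of which 19 were well above background on at least 2 of the 8 arrays and could be tested, against 30702 such probes in all; all 10 genes had a tested probe, of 12609 named genes that did. AGPAT6 is the array's name for the gene that RefSeq now calls GPAT4.

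The cells were primary bovine mammary epithelial cells (BMECs), grown from tissue of a lactating Holstein cow and used at passage 5. A short hairpin RNA (shRNA) named EEF1D-1357 was used in 3 samples and another, EEF1D-1893, in 3 samples, both directed at EEF1D, which encodes the delta subunit of a translation elongation factor complex. The control group was 2 samples without shRNA; the labels name no non-targeting hairpin, so the effect of carrying any hairpin cannot be told apart from that of lowering EEF1D. The labels do not say that replicates were separate cultures, and the spread between them, which every p-value here rests on, may be technical. Each sample was hybridised to 1 single-colour Agilent array, and a level is given as log2 signal minus the 75th percentile of that array (scaled log2), so a probe at 0 is as bright as that percentile and each step of 1 is a doubling. Levels of different probes cannot be compared with each other, since each 60-base probe has its own brightness.

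In milk-secreting cells, fatty acids are joined to glycerol 3-phosphate in turn: a GPAT enzyme adds the first acyl chain, an AGPAT enzyme the next, a lipin removes the phosphate, and a DGAT enzyme adds the last chain to give triglyceride. The product collects in droplets under a perilipin coat. At the apical surface a droplet is wrapped in plasma membrane and released as a milk fat globule, with butyrophilin (BTN1A1) and xanthine oxidoreductase (XDH) in the complex that ties droplet to membrane, and lactadherin (MFGE8) on the outer face.

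For AGPAT6, MFGE8 and DGAT1 the results turn on which probe is read, so 2 probe sequences of each are shown, 60 bases long, as printed on the array, in lower case with no base marked. Positions are those of the array design (Btau_3.1), and the files do not say which exon, intron or UTR a probe lies in. For AGPAT6 the upstream probe and the next one downstream of it, whose position spans 3210 bases of the genome, gave opposite signs against control. For MFGE8 and DGAT1 the 2 tested probes of each gene are shown, the downstream one first.
AGPAT6 A_73_P382761, chr27:38943817-38943876, plus strand: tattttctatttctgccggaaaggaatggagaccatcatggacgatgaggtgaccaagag
AGPAT6 A_73_P046731, chr27:38947812-38951021, plus strand: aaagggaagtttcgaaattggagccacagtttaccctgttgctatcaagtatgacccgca
MFGE8 A_73_P044836, chr21:20238069-20238128, minus strand: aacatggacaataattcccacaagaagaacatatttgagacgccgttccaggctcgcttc
MFGE8 A_73_P204977, chr21:20244677-20244736, minus strand: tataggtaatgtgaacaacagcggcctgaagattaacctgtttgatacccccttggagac
DGAT1 A_73_104037, chr14:446437-446496, plus strand: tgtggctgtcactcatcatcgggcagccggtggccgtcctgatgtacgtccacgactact
DGAT1 A_73_P387901, chr14:444877-444936, plus strand: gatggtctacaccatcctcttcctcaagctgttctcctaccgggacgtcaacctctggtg
Each of these 6 probes has at least 1 reading frame on its own strand without a stop codon. The hexamer AATAAA, a polyadenylation signal, is in 2 of the 24 probes on the probe strand (8.3%), A_73_119291 for AGPAT6 and A_73_104929 for AGPAT1, against 9.4% of all 43653 probes. Counting its reverse complement TTTATT as well, the 2 members make 8.3% and all probes 12.5%.

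On the arrays as a whole, 60.6 to 71.5% of probes were well above background, no spot was saturated and the 75th percentile lay between 1276 and 2100 intensity units. The array of control replicate 1 stood apart. The SD over probes of the log2 difference between the 2 controls was 0.83, against 0.48 to 0.68 between EEF1D-1357 arrays and 0.58 to 0.64 between EEF1D-1893 arrays. The arrays lay on 2 slides, with EEF1D-1357 beside control replicate 2 on the first and EEF1D-1893 beside control replicate 1 on the second, so each hairpin has 1 control on its own slide. The SD between the controls is thus between slides, while those within a hairpin are within 1 slide. EEF1D itself (probe A_73_115715, the brightest of 4 tested) read 5.97, 5.85 and 5.09 in EEF1D-1357, 5.99, 5.74 and 5.76 in EEF1D-1893, and 7.11 and 6.14 in the controls. It was below both controls on all 6 shRNA arrays, as were 9.98% of all tested probes. EEF1D was at 53.9% of the control mean (log2 fold change -0.89, limma adjusted p = 0.219). With control replicate 1 left out it was at 75.5% (-0.41, adjusted p = 0.584). With control replicate 2 left out instead it was at 38.4% (-1.38, adjusted p = 0.037), so the size of the difference rests on which control is kept. Of markers fixed for other cell types, 0 of the 6 adipocyte genes were well above background on all 8 arrays and ADIPOQ, LEP and LPL were not tested. Luminal keratin and junction genes were well above background on all 8 arrays for 6 of 7. Of the 7 genes of the milk-secreting cell, 4 (CSN1S1, CSN1S2, LALBA and GLYCAM1) were not above background often enough to be tested, while CSN2, CSN3 and PAEP were. Well above background on all 8 arrays were also 3 of 7 fibroblast and 5 of 6 leukocyte markers. Most epithelial and fibroblast markers had log2 fold changes below 0 against control, as did 7213 of all 12609 genes. Below 0 were all 8 basal and myoepithelial ones (median -0.61) and all 6 fibroblast ones tested (median -0.31). So were 5 of the 6 luminal ones tested (median -0.29). By limma 0 of these were called, and 2, 0 and 1 of them had an unadjusted p under 0.05, against 16.8% of all genes. The 3 adipocyte markers tested were all above 0 (median 0.34), as was 1 of 2 endothelial ones. The summed level of the luminal markers was 8.9 to 8.98 in EEF1D-1357, 8.9 to 9.09 in EEF1D-1893 and 8.99 to 9.84 in control. The summed level of the basal markers was 7.57 to 7.77 in EEF1D-1357, 7.23 to 8.33 in EEF1D-1893 and 8.20 to 8.26 in control, and the part of such markers in the results was not tested.

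The comparison of both shRNAs with control asks how the genes of milk fat assembly differ between cells given hairpins directed at EEF1D and cells without shRNA. None of the 19 tested probes changed at an adjusted p under 0.05 by limma, where 0.0% of all tested probes were called. At an unadjusted p under 0.05 the probes were 2 of 19, one for AGPAT6 (higher) and one for LPIN1 (lower), against 18.4% of all probes. With each gene at its brightest probe, 4 of 10 had log2 fold changes above 0 and 6 below. Their median was -0.08, beside -0.07 over all 12609 genes, and their median size without regard to sign was 0.19, beside 0.26.

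**Figure D1:**
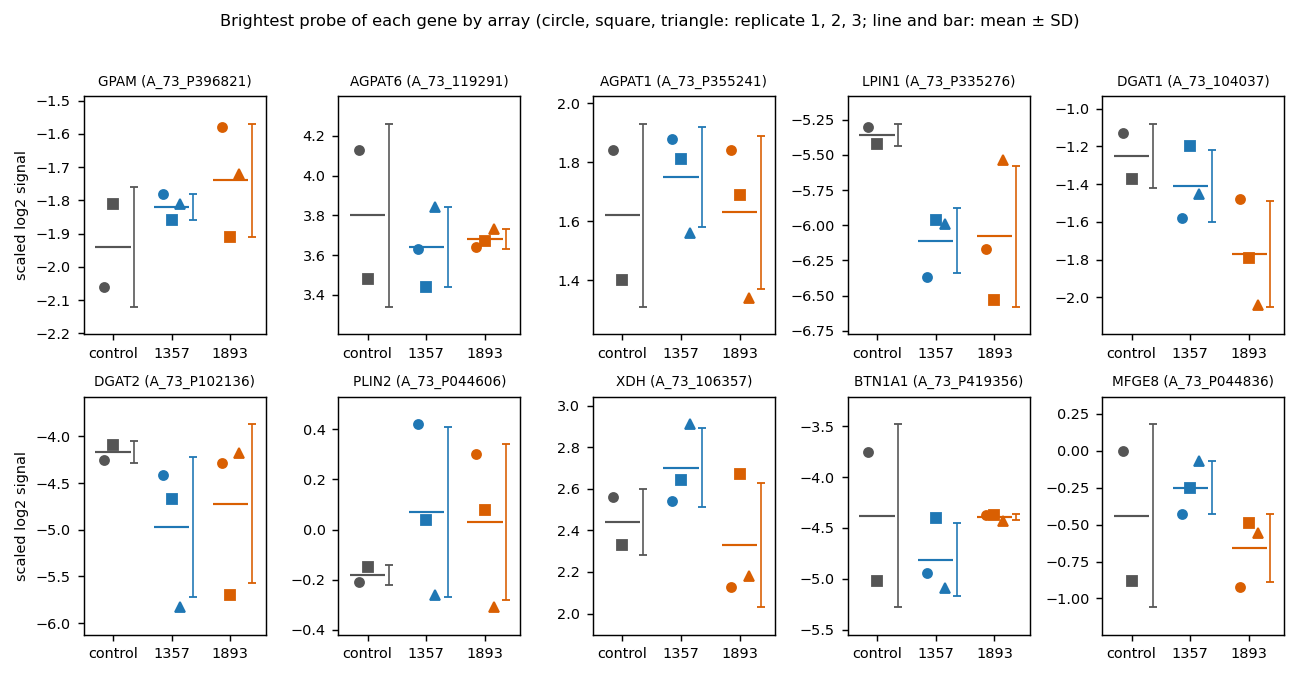
Scaled log2 signal (log2 signal minus the 75th percentile of the array) of the brightest probe of each of the 10 genes, on a separate axis per gene, in 2 control, 3 EEF1D-1357 and 3 EEF1D-1893 arrays; the horizontal line is the group mean and the bar beside it the SD. Only LPIN1 has all 6 shRNA arrays below both controls, and the 2 controls lie far apart for AGPAT6, BTN1A1 and MFGE8.

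GPAM encodes the mitochondrial glycerol-3-phosphate acyltransferase, which adds the first acyl chain. Its brightest probe (A_73_P396821) read -1.78, -1.86 and -1.81 in EEF1D-1357, -1.58, -1.91 and -1.72 in EEF1D-1893, and -2.06 and -1.81 in control. The groups overlapped, and the log2 fold change was 0.16 (95% interval -0.18 to 0.49, adjusted p = 0.575), or 0.03 without control replicate 1. The 3 EEF1D-1357 arrays lay within a range narrower than the gap between the controls. The other 2 probes had log2 fold changes of 0.33 (A_73_120284) and -0.06 (A_73_P250886, well above background on 3 arrays), and each of their intervals included 0.

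AGPAT6, despite its old name, encodes a glycerol-3-phosphate acyltransferase of the endoplasmic reticulum, the site of milk triglyceride synthesis. Its probe A_73_P382761 read -3.20, -3.34 and -2.92 in EEF1D-1357, -2.94, -3.07 and -3.06 in EEF1D-1893, and -3.90 and -3.60 in control. All 6 shRNA arrays were above both controls, as for 8.14% of all tested probes, and the mean was 158.1% of control. The log2 fold change was 0.66 ± 0.16 (SE, 95% interval 0.29 to 1.03), with an adjusted p of 0.141 in the limma fit. By hairpin the value was 0.60 for EEF1D-1357 (adjusted p = 0.203) and 0.73 for EEF1D-1893 (adjusted p = 0.211), and these comparisons share the control arrays. With slide as a block the value stays at 0.66, since this layout of the arrays fixes it. The limma adjusted p was then 0.0458. That fit, here and below, has 1 control per slide, so the spread between the controls does not enter its error. In it 1054 of all tested probes passed as higher and 1125 as lower. Within slides the difference was 0.44 for EEF1D-1357 against control replicate 2 and 0.88 for EEF1D-1893 against control replicate 1. Over both hairpins the value was 0.81 without control replicate 2 and 0.51 without control replicate 1. Over 18 alternatives, some of which cannot change it, the value stayed between 0.51 and 0.81. The limma adjusted p reached 0.302.

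The other 2 AGPAT6 probes did not follow it. The brightest, A_73_119291, read 3.63, 3.44 and 3.84 in EEF1D-1357, 3.64, 3.67 and 3.73 in EEF1D-1893, and 4.13 and 3.48 in control. Here the groups overlapped, with control replicate 1 the highest array and the log2 fold change -0.15 (95% interval -0.61 to 0.32, adjusted p = 0.719). This value was 0.18 without control replicate 1 and -0.47 without control replicate 2, so its sign rests on which control is kept. The middle probe A_73_P046731 read -1.66, -1.80 and -1.33 in EEF1D-1357, -1.40, -1.59 and -1.58 in EEF1D-1893, and -1.17 and -1.83 in control (log2 fold change -0.06, 95% interval -0.56 to 0.43). It tracked A_73_119291 over the arrays: the difference between these probes was 5.04 to 5.31 on all 8 arrays. The difference between A_73_119291 and A_73_P382761, 8185 bases further upstream, was 8.03 in control replicate 1, 7.07 in control replicate 2, and 6.58 to 6.83 in the 6 shRNA arrays. Both controls were thus above every shRNA array in this difference, with control replicate 1 furthest out. The pair was looked at after seeing the data, and how often probe pairs of other genes part in this way was not counted.

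AGPAT1 encodes an acyltransferase that adds the next chain to make phosphatidic acid. Its brightest probe (A_73_P355241) read 1.88, 1.81 and 1.56 in EEF1D-1357, 1.84, 1.69 and 1.34 in EEF1D-1893, and 1.84 and 1.40 in control. Every group spanned nearly the same range, and the log2 fold change was 0.07 (95% interval -0.39 to 0.52, adjusted p = 0.881). The other probe, A_73_104929, gave 0.08, and the 2 probes differed by -0.42 to -0.17 on all 8 arrays, so they tracked each other. The 95% interval reaches up to 0.52 on the log2 scale, which is not a maximum, and does not show that AGPAT1 was the same in both.

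LPIN1 encodes lipin 1, the phosphatase that turns phosphatidic acid into diacylglycerol. Its probe A_73_P335276 read -6.37, -5.96 and -5.99 in EEF1D-1357, -6.17, -6.53 and -5.54 in EEF1D-1893, and -5.30 and -5.42 in control. All 6 shRNA arrays were below both controls, as for 9.98% of all tested probes, and the log2 fold change was -0.73 ± 0.26 (SE, 95% interval -1.34 to -0.12, adjusted p = 0.221 by limma). The probe was well above background on only 2 of 8 arrays, 1 control and 1 EEF1D-1893 array, and on no EEF1D-1357 array. The lowest signal counted as well above background lay between -6.01 and -4.96 from array to array, so most of these readings are bounds and no fold for EEF1D-1357 against control can be given. The value was -0.67 without control replicate 1, -0.79 without control replicate 2, and -0.04 after another background correction (normexp with quantile scaling).

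The 2 other LPIN1 probes were as dim. A_73_P082956 was well above background on 2 arrays and had a log2 fold change of -0.09 (95% interval -1.45 to 1.27). A_73_P255331 was well above background on 1 array and was not tested. It read -2.52 in EEF1D-1893 replicate 3, where its signal was 345 intensity units, and -7.22 to -5.78 on the other 7 arrays. That spot was not marked as an outlier by the scanner software, and neither other LPIN1 probe was raised to that degree on the array.

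DGAT1 encodes an enzyme that adds the last acyl chain and is long studied for milk fat in dairy cattle. Its brightest probe (A_73_104037) read -1.58, -1.20 and -1.45 in EEF1D-1357, -1.48, -1.79 and -2.04 in EEF1D-1893, and -1.13 and -1.37 in control. All 3 EEF1D-1893 arrays were below both controls, while EEF1D-1357 overlapped them. The share of all probes parted in this way for 1 hairpin is not given here. The log2 fold change was -0.34 ± 0.19 over both hairpins (SE, adjusted p = 0.376), -0.16 for EEF1D-1357 (adjusted p = 0.708) and -0.52 for EEF1D-1893 (95% interval -1.01 to -0.02, adjusted p = 0.322). Within slides the values were -0.04 and -0.64. The difference between hairpins was 0.36 (95% interval -0.08 to 0.80, adjusted p = 0.775), so a difference between them was not shown.

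The second DGAT1 probe, A_73_P387901, read -4.14, -3.77 and -3.96 in EEF1D-1357, -4.24, -4.01 and -4.44 in EEF1D-1893, and -4.08 and -4.49 in control. It gave 0.19 over both hairpins (95% interval -0.24 to 0.62), 0.33 for EEF1D-1357 and 0.05 for EEF1D-1893. The probes thus had opposite signs against control. The difference between them was 2.95 and 3.12 in the controls and 2.23 to 2.77 in the shRNA arrays. How often probe pairs of other genes part in this way was not counted. Both probes had EEF1D-1357 above EEF1D-1893, by 0.36 and 0.28. The remaining probe, A_73_P475548, was well above background on 1 array and was not tested. DGAT1 and EEF1D lie on the same chromosome: the DGAT1 probes at chr14:444097-446496 and those for EEF1D at chr14:931228-938360 (Btau_3.1), a gap of 484.7 kb.

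DGAT2 encodes an unrelated enzyme for the same last step. Its brightest probe (A_73_P102136, well above background on 6 of 8 arrays) read -4.41, -4.67 and -5.83 in EEF1D-1357, -4.29, -5.70 and -4.18 in EEF1D-1893, and -4.25 and -4.09 in control. In each hairpin group 1 array was more than 1 log2 unit below the others, and 5 of 6 shRNA arrays were below both controls. The log2 fold change was -0.68 ± 0.50 (SE, 95% interval -1.85 to 0.49, adjusted p = 0.489), within the spread between replicates, and was -0.20 after normexp with quantile scaling. A_73_118582, well above background on 3 arrays, gave -0.48, and A_73_P319411 was well above background on 1 array. The last 2 probes overlap in the genome and are not separate measurements.

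PLIN2 encodes the perilipin that coats droplets in the mammary epithelium. Its only probe (A_73_P044606) read 0.42, 0.04 and -0.26 in EEF1D-1357, 0.30, 0.08 and -0.31 in EEF1D-1893, and -0.21 and -0.15 in control. Each hairpin group had arrays above and below both controls: 4 of the 6 were above and 2 below. The log2 fold change was 0.23 (95% interval -0.30 to 0.76, adjusted p = 0.612). It was 0.25 for EEF1D-1357 and 0.21 for EEF1D-1893. The controls differed by only 0.06 here, less than either hairpin group's range.

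XDH encodes xanthine oxidoreductase, a purine-oxidising enzyme that also serves as a structural protein of the globule. Its only probe (A_73_106357) read 2.54, 2.64 and 2.91 in EEF1D-1357, 2.13, 2.67 and 2.18 in EEF1D-1893, and 2.56 and 2.33 in control. EEF1D-1893 replicate 2 sat among the EEF1D-1357 arrays and the other two EEF1D-1893 arrays were the lowest of the 8. The log2 fold change was 0.07 over both hairpins (95% interval -0.38 to 0.52, adjusted p = 0.875), 0.25 for EEF1D-1357 and -0.12 for EEF1D-1893. The hairpins differed by 0.37 (95% interval -0.08 to 0.82, adjusted p = 0.775 by limma).

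BTN1A1 encodes butyrophilin, the abundant membrane protein that gathers XDH at the apical surface. Of its 3 probes, A_73_114446 and A_73_P062736 were well above background on no array. A_73_P419356, whose position spans 1414 bases, was well above background on 7 of 8 arrays. It read -4.94, -4.40 and -5.09 in EEF1D-1357, -4.37, -4.37 and -4.43 in EEF1D-1893, and -3.75 and -5.02 in control. The controls were the highest array and the next to lowest, and the log2 fold change of -0.22 (95% interval -1.0 to 0.56, adjusted p = 0.750) was 0.42 without control replicate 1 and -0.85 without control replicate 2. Against control replicate 1 alone, EEF1D-1357 was lower, with a log2 fold change of -1.06. Within its own slide, against control replicate 2, EEF1D-1357 was higher by 0.21.

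MFGE8 encodes lactadherin, a secreted glycoprotein that binds phosphatidylserine and integrins. Its brightest probe (A_73_P044836) read -0.43, -0.25 and -0.07 in EEF1D-1357, -0.92, -0.49 and -0.56 in EEF1D-1893, and 0.00 and -0.88 in control. The log2 fold change against control was -0.01 (95% interval -0.60 to 0.58), 0.43 without control replicate 1 and -0.45 without control replicate 2. The other probe, A_73_P204977, read -0.54, -0.20 and -0.11 in EEF1D-1357, -1.06, -0.58 and -0.70 in EEF1D-1893, and -0.79 and -0.88 in control. Here the controls were close, 5 of 6 shRNA arrays were above both, and the log2 fold change was 0.30 (95% interval -0.12 to 0.73, adjusted p = 0.403). The probes agree on 7 arrays, where A_73_P044836 minus A_73_P204977 was -0.05 to 0.15, and part on control replicate 1, where it was 0.79.

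**Figure D2:**
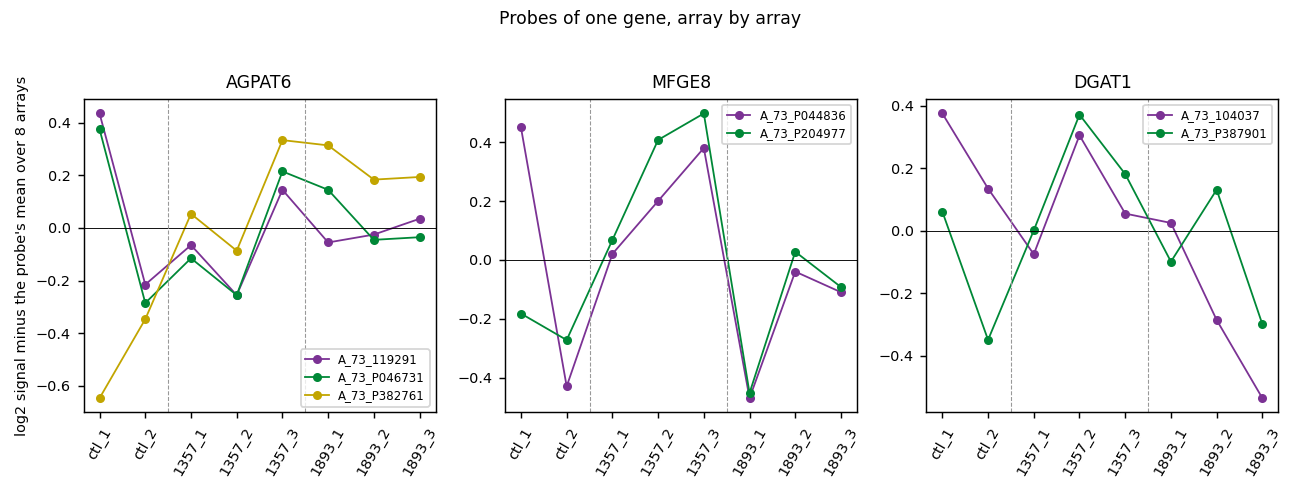
Scaled log2 signal minus the mean of the same probe over 8 arrays, for the tested probes of AGPAT6, MFGE8 and DGAT1, by array; the axis shortens each group's name and adds the replicate number, and dashed lines part the groups. Control replicate 1 has the AGPAT6 probe A_73_P382761 low while the other two are high, and MFGE8 probe A_73_P044836 high while A_73_P204977 is low.

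The parting of probes for one gene on control replicate 1 was seen across the array. Among 5712 genes with 2 tested probes at least 500 bases apart, the difference between the most downstream and the most upstream probe lay more than 0.5 (log2) outside the range of the other 7 arrays for 19.87% of genes on control replicate 1. The share was 3.08% on control replicate 2 and 1.21 to 2.29% on the shRNA arrays. The median of that difference, relative to each gene's mean, was -0.066 on control replicate 1 and between -0.007 and 0.030 on the other arrays. AGPAT6 and MFGE8 moved the opposite way to that median. What part this array had in the AGPAT6 value was tested only by leaving it out: the log2 fold change of A_73_P382761 was then 0.51.

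EEF1D-1357 against EEF1D-1893 asks where the hairpins differ. The fold changes are differences of the 2 hairpin means, while their SEs and p-values rest on the spread over all 8 arrays. Again 0 of 19 probes passed at an adjusted p under 0.05 by limma, as did 0.0% of all probes, and 1 of 19 had an unadjusted p under 0.05, against 6.23%. That probe was A_73_P204977 for MFGE8, higher in EEF1D-1357 by 0.50 ± 0.18 (SE, 95% interval 0.07 to 0.93, adjusted p = 0.775). The other MFGE8 probe gave 0.41 ± 0.25 (SE, 95% interval -0.18 to 0.99, adjusted p = 0.778). In both probes all 3 EEF1D-1357 arrays were above all 3 EEF1D-1893 arrays. Of the 19 probes only these 2 had EEF1D-1357 wholly above, against 6.96% of all probes, and none had it wholly below, against 13.2%. Each hairpin lay on its own slide, so slide and hairpin are separated only through the single control on each. With slide as a block, A_73_P044836 differed by 1.28 and A_73_P204977 by 0.59, and neither passed (adjusted p = 0.104 and 0.356). The median over the 10 genes moved from 0.00 to 0.58 with that block, while over all genes it moved from -0.05 to 0.16.

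**Figure D3:**
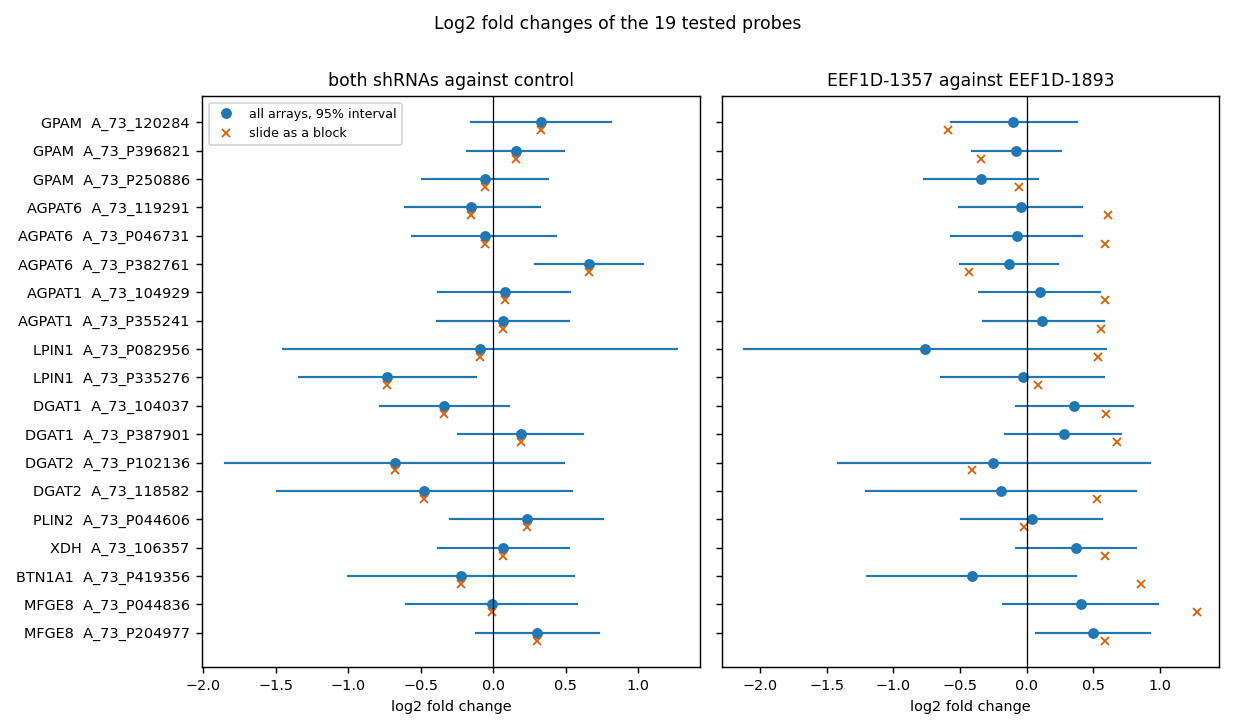
Log2 fold change (horizontal axis) of each of the 19 tested probes, both shRNAs against control on the left and EEF1D-1357 against EEF1D-1893 on the right; circles with lines are the estimate over all 8 arrays and its 95% interval, crosses the estimate with slide as a block. The intervals that leave out 0 are those of AGPAT6 A_73_P382761 and LPIN1 A_73_P335276 on the left and MFGE8 A_73_P204977 on the right, before adjustment for 30702 probes.

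Taken hairpin by hairpin, 0 of 19 probes passed against control in either comparison by limma (0.0% of all probes in each). For EEF1D-1357, 3 of 19 had an unadjusted p under 0.05 against 17.6% of all probes: AGPAT6 A_73_P382761, LPIN1 A_73_P335276 and MFGE8 A_73_P204977 (0.55, 95% interval 0.08 to 1.03, adjusted p = 0.244). For EEF1D-1893, 3 of 19 did against 15.0%: AGPAT6 A_73_P382761, LPIN1 A_73_P335276 and DGAT1 A_73_104037. All these shares are near or below that of the whole array.

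Related genes were read through 5 lists, each gene at its brightest probe, and 0 of the genes tested passed at an adjusted p under 0.05 in both shRNAs against control by limma. The other enzymes of glycerolipid assembly had 13 of 16 genes tested, 7 with log2 fold changes above 0 and a median of 0.03. Of these 0 had an unadjusted p under 0.05, against 16.8% of all 12609 genes. MOGAT1, MOGAT2 and CDS1 were not tested. LPIN2, a second lipin, read -4.12, -4.08 and -4.11 in EEF1D-1357, -3.67, -3.83 and -3.99 in EEF1D-1893, and -2.82 and -3.88 in control. Its log2 fold change of -0.62 (adjusted p = 0.271, or 0.0393 with slide as a block) was -0.08 without control replicate 1, so it rests on that array. PLPP1, a lipid phosphate phosphatase, was above both controls on all 6 shRNA arrays, as were 8.14% of all tested probes. Its log2 fold change was 0.32 (adjusted p = 0.275 by limma, or 0.144 with slide as a block). LCLAT1, a lysocardiolipin acyltransferase, and AGPAT4 had values of -0.34 and 1.10, or -0.11 and 0.33 without control replicate 1, and the AGPAT4 arrays ranged from -2.94 to 0.08.

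Genes of the droplet coat and droplet growth had 17 of 18 tested, 6 above 0, with a median of -0.11. Only ACSL3, an acyl-CoA synthetase of nascent droplets, had an unadjusted p under 0.05, against 16.8% of all 12609 genes. It read 2.23, 2.11 and 1.76 in EEF1D-1357, 2.08, 1.87 and 1.86 in EEF1D-1893, and 3.32 and 2.44 in control. All 6 shRNA arrays were below both controls, as for 9.98% of all tested probes. The log2 fold change was -0.90 (limma adjusted p = 0.164, or 0.0362 with slide as a block), and -0.46 without control replicate 1. PLIN5 had -0.32 and PCYT1A -0.25, which became -0.15 and -0.10 without control replicate 1. RAB7A had 0.24, and 0.23 without that array. With slide as a block the limma adjusted p was 0.0909 for PLIN5, 0.209 for PCYT1A and 0.138 for RAB7A. Of the genes of triglyceride breakdown, 5 of 8 were tested, 1 above 0, with a median of -0.10. LIPE, MGLL and PNPLA3 were not tested. ABHD5, the activator of the main triglyceride lipase, had -0.10 over both hairpins but was 0.66 higher in EEF1D-1357 than in EEF1D-1893 (adjusted p = 0.775 by limma). G0S2, an inhibitor of that lipase, ranged from -7.77 to -1.70 within the shRNA arrays, so its -1.62 (-2.40 without control replicate 1) is within its spread. LIPA had -0.11 and DDHD2 0.30, which became 0.04 and -0.30 without control replicate 1; DDHD2 was 0.90 without control replicate 2.

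**Figure D4:**
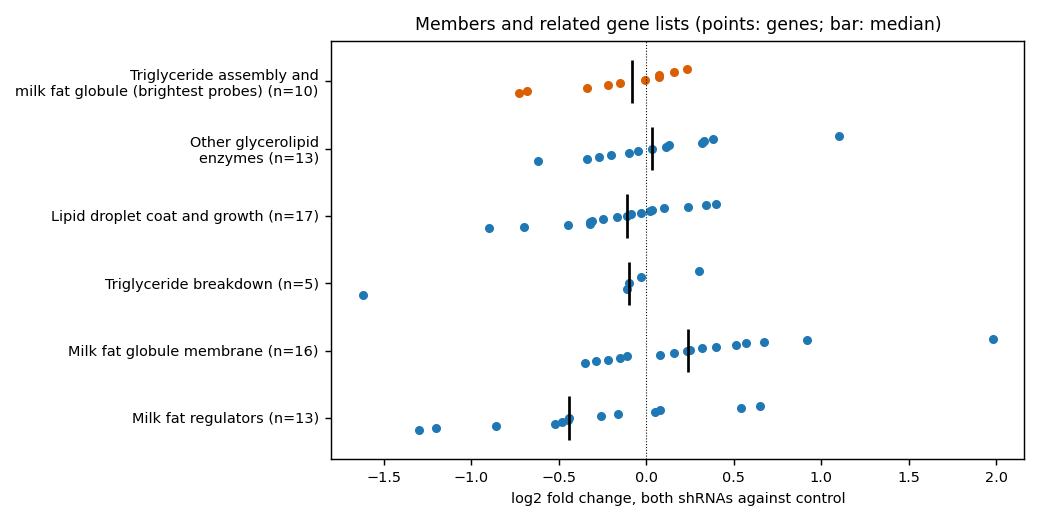
Log2 fold change (horizontal axis, both shRNAs against control) of the 10 genes described here at their brightest probe and of the tested genes of 5 related lists; each point is a gene and the vertical bar the median of the list. The regulators have the lowest median, -0.44, and the other proteins of the globule membrane the highest, 0.24, beside -0.07 over all 12609 genes.

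Of the other proteins of the milk fat globule membrane and of its secretion, all 16 were tested, 11 above 0, with a median of 0.24. The 3 at an unadjusted p under 0.05, against 16.8% of all 12609 genes, were all above control. ANXA1, a membrane-binding annexin, read 6.16, 6.23 and 5.97 in EEF1D-1357, 5.97, 5.95 and 5.81 in EEF1D-1893, and 5.23 and 5.46 in control. It was above both controls on all 6 shRNA arrays, as were 8.14% of all tested probes, by 0.67 ± 0.14 (log2, SE, limma adjusted p = 0.131). RAB11A, a GTPase of recycling endosomes, was higher on all 6 by 0.51 ± 0.13 (adjusted p = 0.147). SNAP23, a membrane fusion protein, was higher on all 6 by 0.57 (adjusted p = 0.232), but by 0.18 without control replicate 1. With slide as a block these 3 had adjusted p of 0.0348, 0.0438 and 0.0449, where 1054 of all tested probes passed as higher and 1125 as lower. The spread between the controls does not enter the error of that fit. ANXA2 had -0.35 (limma adjusted p = 0.284, or 0.069 with slide as a block), -0.11 without control replicate 1 and -0.60 without control replicate 2.

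Regulators of milk fat had 13 of 17 tested, 4 above 0, with a median of -0.44, beside -0.07 over all 12609 genes. By hairpin the median was -0.39 for EEF1D-1357 and -0.40 for EEF1D-1893. With slide as a block these medians were -0.06 and -0.64, so the median for EEF1D-1357 rests on which control it is set against. At an unadjusted p under 0.05, 3 were lower and 1 higher, against 9.5% and 7.27% of all 12609 genes. INSIG1, which holds the SREBP precursor in the endoplasmic reticulum, read -0.14, 0.07 and 0.27 in EEF1D-1357, -0.62, -0.68 and -0.12 in EEF1D-1893, and 0.73 and 0.59 in control. It was below both controls on all 6 shRNA arrays, as were 9.98% of all tested probes. The log2 fold change was -0.86 (adjusted p = 0.140 by limma, or 0.0543 with slide as a block), and -0.79 without control replicate 1. SREBF1, the lipogenic transcription factor whose targets include INSIG1, read -1.42, -1.58 and -1.64 in EEF1D-1357, -1.33, -1.73 and -1.74 in EEF1D-1893, and -1.10 and -1.08 in control. It too was below both controls on all 6. Its value was -0.48 (limma adjusted p = 0.196, or 0.0975 with slide as a block), and -0.49 without control replicate 1. MLXIPL, a glucose-responsive transcription factor, had -1.30 (adjusted p = 0.239) and was well above background on 5 arrays. INSIG2 had 0.65 (adjusted p = 0.251), or 0.27 without control replicate 1. With slide as a block MLXIPL and INSIG2 had limma adjusted p of 0.175 and 0.103. PPARGC1A, PPARGC1B, ELF5 and PRLR were not tested. Without control replicate 2, when 2879 of all probes passed as higher and 4101 as lower, 10 of the 20 list genes named passed: LPIN2, ACSL3, PLIN5, DDHD2, ANXA1, RAB11A, SNAP23, ANXA2, INSIG1 and INSIG2. Without control replicate 1, 0 of the 20 did.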

How the data were processed

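Labelled total RNA of 8 samples was read on 8 single-colour arrays. Per the file headers, the scanner files were written by Agilent Feature Extraction 10.7.3.1 (9.1 per the submitters' processing notes); the authors' deposited processed signal is a background-corrected intensity. The authors' deposited series table holds log2 values, and the median of its array medians is 7.55. Its correlation with the scanner values was 0.9979 to 0.9999. Its normalization steps are not given in the sources used here, and its direction and log2 scale follow the scanner values. The files' flags for background, saturation and outliers are the authors' deposited values too.

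Of 43653 probes, 238 with an outlier spot were left out. Each array's 75th percentile was subtracted from its log2 signals. The 30702 probes detected above background on 2 or more arrays were fitted with limma 3.58.1 (R 4.3.3), with 1 mean per group over all 8 arrays (5 residual and 2.23 prior degrees of freedom), two-sided, Benjamini-Hochberg adjusted over all tested probes. Precision is limited by how few arrays there are. A gene's brightest probe stands for it. The genes named are the 10 members with all probes, EEF1D, and the 4 smallest p-values of each list. Members and lists were chosen with earlier results of these data known, and the differences between probes of a gene were added after seeing the data. Alternatives were 2 other scalings, normexp (offset 50) with quantile scaling, the deposited table, other filters, 1 feature per gene, slide or replicate blocks, a trended robust fit, only the groups compared, and each array left out. Columns with no sample numbered 0.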

Additional observations from a re-analysis of the deposited data

How the results depend on the processing

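Some alternatives cannot change a fold change: filters on dim probes, the trended robust fit, and leaving out an array of a group not compared. Keeping each gene's brightest probe and fitting only the groups compared cannot either. For both shRNAs against control, nor can slide as a block. Agreement there was fixed in advance, and these are counted below. For the 12 probes followed (the brightest of each gene, AGPAT6 A_73_P382761 and MFGE8 A_73_P204977), 932 alternative values were computed over the 4 comparisons. Of these 877 kept their direction and side of the threshold, 49 changed sign (26 of them with an array left out) and 6 passed where the reported value did not. The number of member probes called was 0 in all 4 comparisons and became 1 with slide as a block for both shRNAs and for EEF1D-1893 against control. With each array left out it stayed at 0, except against control in the fits without control replicate 2, which hold 1 control. The probes called were A_73_P382761 for AGPAT6 (with slide as a block, 0.66 for both shRNAs and 0.88 for EEF1D-1893) and, for EEF1D-1357 without control replicate 2, also BTN1A1. A group of 1 control is assumed there to vary like the others, and so is the 1 control on each slide in the slide block. For a single hairpin, slide as a block and leaving out the control on the other slide are the same fit. The numbers of alternatives above count it more than once. A pass in a fit with 1 control is not read here as a result about these probes. Over the whole table the calls for both shRNAs against control went from 0 to 1054 higher and 1125 lower with slide as a block, 2879 and 4101 without control replicate 2, 10 and 88 without control replicate 1, and 1 and 7 with only probes above background on all 8 arrays. At an unadjusted p under 0.05, 2425 were higher and 3231 lower, but 3441 and 2182 with median scaling and 2957 and 2677 with quantile scaling.

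The replicate numbers shared by the groups do not pair the samples: correlations of same-numbered deviations were -0.072 to 0.157. With the replicate number as a block, 0 member probes were called in each of the 4 comparisons, and 2 values for EEF1D-1893 against control changed sign, BTN1A1 to 0.07 and MFGE8 A_73_P204977 to -0.01.

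The sign changes were in values that had not passed the threshold, and the cause was not tested. With the mean of a gene's probes, AGPAT6 became 0.15 (both shRNAs), 0.11 (EEF1D-1357) and 0.19 (EEF1D-1893), MFGE8 0.15 (both) and DGAT1 0.09 (EEF1D-1357), each averaging in probes of the other sign. BTN1A1 in EEF1D-1893 became 0.02 in the deposited table, 0.04 with median scaling, 0.04 with quantile scaling and 0.07 with normexp. MFGE8 A_73_P044836 became 0.08 with median scaling (both). Between the hairpins, LPIN1 became 0.18 in the deposited table, 0.03 with median scaling, 0.17 with quantile scaling and 0.09 with slide as a block, and AGPAT6 A_73_119291 became 0.02 with median scaling. With slide as a block, EEF1D-1357 against control became -0.01 for GPAM, 0.16 for AGPAT6 A_73_119291 and 0.21 for BTN1A1, and between hairpins AGPAT6 A_73_119291 became 0.61, PLIN2 -0.02 and BTN1A1 0.86.

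With each array left out, both shRNAs against control ranged from -0.47 to 0.18 for AGPAT6 A_73_119291, 0.51 to 0.81 for A_73_P382761, -0.15 to 0.28 for AGPAT1, -0.04 to 0.18 for XDH, -0.85 to 0.42 for BTN1A1 and -0.45 to 0.43 for MFGE8 A_73_P044836. For EEF1D-1357 the ranges were -0.01 to 0.25 for GPAM, -0.50 to 0.16 and 0.44 to 0.75 for the AGPAT6 probes in the same order, -0.09 to 0.35 for AGPAT1, -1.06 to 0.21 for BTN1A1 and -0.25 to 0.63 for MFGE8 A_73_P044836. For EEF1D-1893 they were -0.45 to 0.20 and 0.58 to 0.88 for the AGPAT6 probes, -0.65 to 0.62 for BTN1A1, -0.65 to 0.22 for MFGE8 A_73_P044836 and -0.05 to 0.19 for A_73_P204977. Between hairpins they were -0.15 to 0.06 for AGPAT6 A_73_119291, -0.02 to 0.23 for AGPAT1, -0.25 to 0.24 for LPIN1, -0.74 to 0.18 for DGAT2 and -0.14 to 0.20 for PLIN2. Signal near background limits LPIN1, whose tested probes were well above it on 2 of 8 arrays each.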
